A study of Mus musculus with 32 samples.

Results

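The mRNA levels of 40 lysosomal genes were followed here in mouse embryonic fibroblasts, which are cells grown from embryonic connective tissue. The genes were taken from a list of 41 symbols by matching them to the gene symbols that the authors' tables give, out of 39017 genes in the read count table. All 40 passed a filter on low counts, as did 18484 genes in all. The one symbol without a match was Ctss, which encodes a cathepsin of antigen-presenting cells and had at most 2 reads in a library.

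Lysosomes are acidic organelles in which proteins, glycans and lipids are broken down. Their lumen holds cathepsins and other proteases, glycosidases, sulfatases and lipid-processing enzymes, and their membrane holds heavily glycosylated proteins such as LAMP1 and LAMP2. Many of these genes carry the E-box CACGTG near their start sites, and TFEB, a basic helix-loop-helix factor controlled by mTORC1, binds it and raises their transcription.

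The cells came from 4 lines: a wild-type line (wtATM), an ATM knock-out line, a second wild-type line (wtATMIN) and an ATMIN knock-out line. The ATM kinase signals DNA breaks, and ATMIN, named as its interactor, also acts as a zinc finger transcription factor. Every line was kept in DMEM with serum and antibiotics and given 1 µM aphidicolin (APH), which blocks replicative DNA polymerases, or its solvent DMSO, for 4 h or 24 h. Each of the 16 groups has 2 samples, which makes 32. Only 1 line stands for each knock-out, so that genotype and line cannot be told apart, and the deleted alleles are not given in the sources used here. Whether both samples of a group came from separate cultures is not stated, so p-values measure only the spread between these samples, which may be technical.

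Total counts ran from 9321329 to 21020662 per sample. Reads of Atmin lay between 3.77 and 6.76 CPM (counts scaled to 1e6 of the TMM-adjusted library size) in the 8 ATMIN knock-out libraries and between 20.4 and 32.9 CPM in the 8 wtATMIN libraries. Reads of Atm were lower in the ATM knock-out than in wtATM in both DMSO comparisons and after 4 h of APH, but not after 24 h of APH, where the log2 difference was -0.12 ± 0.15 (SE). All 10 fibroblast markers passed the filter, with a summed level of 7177 to 31700 CPM. A list of 10 macrophage markers, 5 of which passed the filter, summed to between 15.98 and 40.85 CPM. In each group 4 to 8 of the 10 had at least 1 read. The 2 libraries of the ATM knock-out at 4 h of APH stood apart: one was the shallowest of all, and the other held 97840 CPM of Gm42418, a gene that overlaps ribosomal RNA and lay between 13780 and 97840 CPM at 4 h but between 252 and 5751 CPM at 24 h.

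The genes spanned a wide range of levels. Per kilobase of gene length and averaged over all libraries, Cd63, a tetraspanin of late endosomes, was highest at 670.7 CPM per kb. It was followed by Psap (522.7), whose product is cut into the saposins that present sphingolipids to hydrolases, and by Lamp1 (319.9), Ctsl (236.5) and Ctsd (209.8). The lowest were Ctsk, Ctso, Cln3 and Ctsf, between 1.12 and 1.46 CPM per kb. Those 4 rest on few reads, and their changes carry larger errors.

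The E-box was looked for in RefSeq's promoter windows of build GRCm38.p6, in the 250 bases before each start site and on both strands. CACGTG was present for 14 of 36 genes with a window (38.9%), against 6.86% of all 27025 genes with one. The longer GTCACGTG, or CACGTGAC on the other strand, which contains CACGTG, was present for 11 of 36 genes (30.6%) against 2.11% of all genes. Counted by window, 14 and 11 of 42 held them (33.3% and 26.2%), against 6.02% and 1.85% of all 32851 windows. The stretches below are shown because their genes, a protease, glycan and sulfate hydrolases and membrane proteins, responded differently to APH, and the capitals mark the match.
Arsa: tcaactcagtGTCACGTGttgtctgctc
Cln3: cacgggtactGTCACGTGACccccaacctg
Ctsd: gcccgcgtctCACGTGACccgttgaggg
Gla: tgagatctcgGTCACGTGagcaactctc
Lamp1: tgccgactggCACGTGACcacatcacgt
Mcoln1: ggtcgcgcttGTCACGTGttcagttcag
They lie at chr15:89477425-89477452 (Arsa, minus strand), chr7:126583340-126583369 (Cln3, minus), chr7:142387908-142387935 (Ctsd, minus), chrX:134601184-134601211 (Gla, minus), chr8:13159123-13159150 (Lamp1, plus) and chr8:3500436-3500463 (Mcoln1, plus). In Cln3 alone among the 36 the match ran on to the longer palindrome that joins both forms, which 0.24% of all windows hold. Ctsd and Mcoln1 each had a further GTCACGTG match on one strand or the other. Windows for Ctsb, Ctsh, Asah1 and Npc1 are not analysed here. A match is a description of these letters and does not show binding.

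After 24 h of APH the lysosomal genes rose in both lines of the ATM pair and were mixed in the ATMIN pair. With edgeR's quasi-likelihood test at a Benjamini-Hochberg adjusted p under 0.05, 30 of 40 were higher and 0 lower in wtATM, where 14.4% of all tested genes were higher and 14.3% lower. Its knock-out had 33 higher and 0 lower (15.7% and 12.2% of all genes). No gene of the 40 was lower in either line at an unadjusted p under 0.05 or by DESeq2. In wtATMIN 15 were higher and 3 lower (13.6% and 15.3%), and in the ATMIN knock-out 13 were higher and 4 lower (14.3% and 15.8%). The median log2 change of the 40 was 0.34, 0.45, 0.14 and 0.10 for wtATM, its knock-out, wtATMIN and its knock-out, against medians of all genes between 0.00 and 0.01. Later sets of 4 values for the lines follow this order. Scaled by library size alone, the split in the lines of the ATMIN pair moved to 21 higher and 1 lower and to 17 higher and 2 lower. Without wtATM DMSO 24 h replicate 1, 19 genes were called in wtATM. The same comparison called 1, 3, 0 and 0 of 10 fibroblast markers higher and 1, 0, 6 and 6 lower. Summed macrophage markers in wtATM lay at 37.3 to 40.9 CPM with APH and at 29.0 to 30.4 CPM with DMSO, and in its knock-out at 33.3 to 34.2 and at 29.5 to 30.4 CPM. In wtATMIN their sum lay at 20.6 to 22.3 CPM with APH and at 15.98 to 18.3 CPM with DMSO, and in the ATMIN knock-out at 22.4 to 23.6 and at 22.8 to 25.2 CPM. Neither marker list was tested for its part in the result. In bulk samples fewer cells of a kind and less RNA per cell cannot be told apart.

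**Figure D1:**
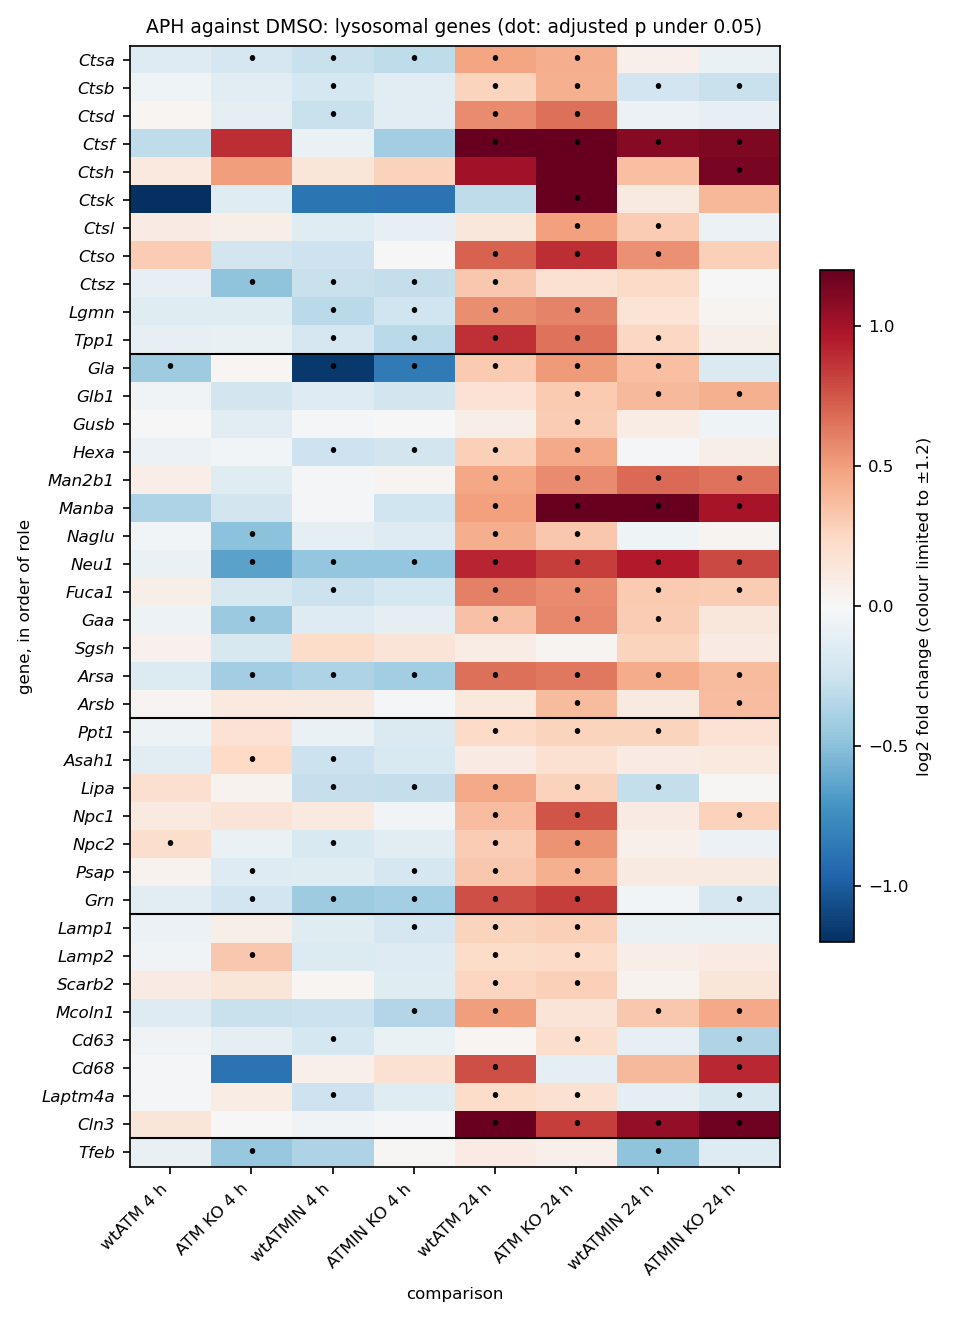
Log2 fold change of APH against DMSO for the 40 genes (rows, in order of role: proteases, glycosidases and sulfatases, lipid enzymes and cofactors, membrane proteins, Tfeb) in each line at 4 h and 24 h (columns); dots mark an adjusted p under 0.05 and colours are limited to ±1.2. At 24 h red dotted cells fill the wtATM and ATM knock-out columns (30 and 33 of 40), and at 4 h dotted cells of the wtATMIN and ATMIN knock-out columns are all blue (17 and 13).

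By role, 9, 12, 8 and 7 of the 13 glycosidases and sulfatases were higher at 24 h and none was lower. Of 11 proteases tested, 8, 9, 4 and 2 were higher, and 1 was lower in each of the lines of the ATMIN pair. Of 7 lipid enzymes, sterol carriers and cofactors, 6 were higher in wtATM and in the ATM knock-out, while 1 was higher and 1 lower in each of wtATMIN and its knock-out. Of 8 membrane proteins, 7, 6, 2 and 3 were higher, and 2 were lower in the ATMIN knock-out. Among all genes 14.4%, 15.7%, 13.6% and 14.3% were higher and 14.3%, 12.2%, 15.3% and 15.8% lower. The counts of 1 or 2 genes in the ATMIN pair rest on few genes, and several lie near these shares. Tfeb, the remaining gene, is described further on.

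At 24 h 7 genes were higher in all 4 lines: Ctsf, Cln3, Manba, Neu1, Man2b1, Arsa and Fuca1 (the last is named to complete the set). Of these, 5 are glycosidases or a sulfatase. Another 8 genes were higher in 3 lines and 17 in 2 lines. How many of all tested genes were higher in as many lines is not given here, so these overlaps have no background beside them. Neu1 (chr17:34931253-34935953) encodes the sialidase that removes terminal sialic acids. Its level in wtATM was 9.73 and 9.70 CPM with DMSO at 24 h and 18.1 and 18.6 CPM with APH, and in the ATMIN knock-out 27.3 and 30.0 CPM against 50.1 and 49.3 CPM. In every line both APH samples lay above both DMSO samples, with log2 changes of 0.92 ± 0.13, 0.83 ± 0.13, 0.95 ± 0.12 and 0.80 ± 0.11 (edgeR adjusted p between 7.7e-08 and 7.1e-06).

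Manba and Man2b1 encode the β- and α-mannosidases that trim N-glycans in the lysosome. Manba (chr3:135485611-135571404) went from 10.5 and 8.08 CPM to 21.1 and 21.9 CPM in wtATMIN, and from 11.04 and 12.25 CPM to 23.1 and 23.1 CPM in the ATMIN knock-out. Its log2 changes were 0.50, 1.22, 1.19 and 0.99, and the first was not called without any one of wtATM DMSO 24 h replicate 1 (0.47), replicate 2 (0.52) or wtATM APH 24 h replicate 2 (0.30). Man2b1 (chr8:85083270-85098282) went from 153 and 141 CPM to 240 and 233 CPM in wtATMIN, and from 49.5 and 52.1 CPM to 67.3 and 73.1 CPM in wtATM. Its log2 changes of 0.47, 0.57, 0.68 and 0.65 were called in every fit that left out a library. Arsa, the arylsulfatase that desulfates sulfatide, rose by log2 changes of 0.67, 0.63, 0.44 and 0.38, from 55.0 and 54.0 CPM to 69.6 and 72.3 CPM in the ATMIN knock-out. Fuca1, an α-fucosidase, had log2 changes of 0.61, 0.57, 0.32 and 0.30, and the calls in the lines of the ATMIN pair were lost without wtATMIN DMSO 24 h replicate 2 (0.27), wtATMIN APH 24 h replicate 2 (0.26), ATMIN knock-out DMSO 24 h replicate 2 (0.29) or ATMIN knock-out APH 24 h replicate 1 (0.28).

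Ctsf (chr19:4855130-4860918), a cysteine cathepsin, had the largest mean change of the genes called in at least 3 lines, with log2 changes of 1.79 ± 0.22, 1.79 ± 0.38, 1.09 ± 0.17 and 1.12 ± 0.23. It stood at 2.09 and 1.68 CPM with DMSO and at 6.48 and 6.64 CPM with APH in wtATM, and at 5.49 and 6.14 against 13.1 and 11.6 CPM in wtATMIN. In the ATM knock-out it was lowest, at 0.779 and 0.193 CPM against 1.39 and 2.09 CPM. Cln3, a multipass membrane protein altered in a juvenile neuronal storage disease, was also low, with 3.34 and 2.67 CPM against 6.19 and 6.44 CPM in wtATMIN. Its log2 changes were 1.19 ± 0.45, 0.83 ± 0.20, 1.05 ± 0.20 and 1.17 ± 0.21. The first of these rests on 5 to 17 reads per library and was lost under a replicate block, with DESeq2, with the compared groups alone and without wtATM DMSO 24 h replicate 1 (1.63), replicate 2 (0.87) or wtATM APH 24 h replicate 2 (0.89).

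**Figure D2:**
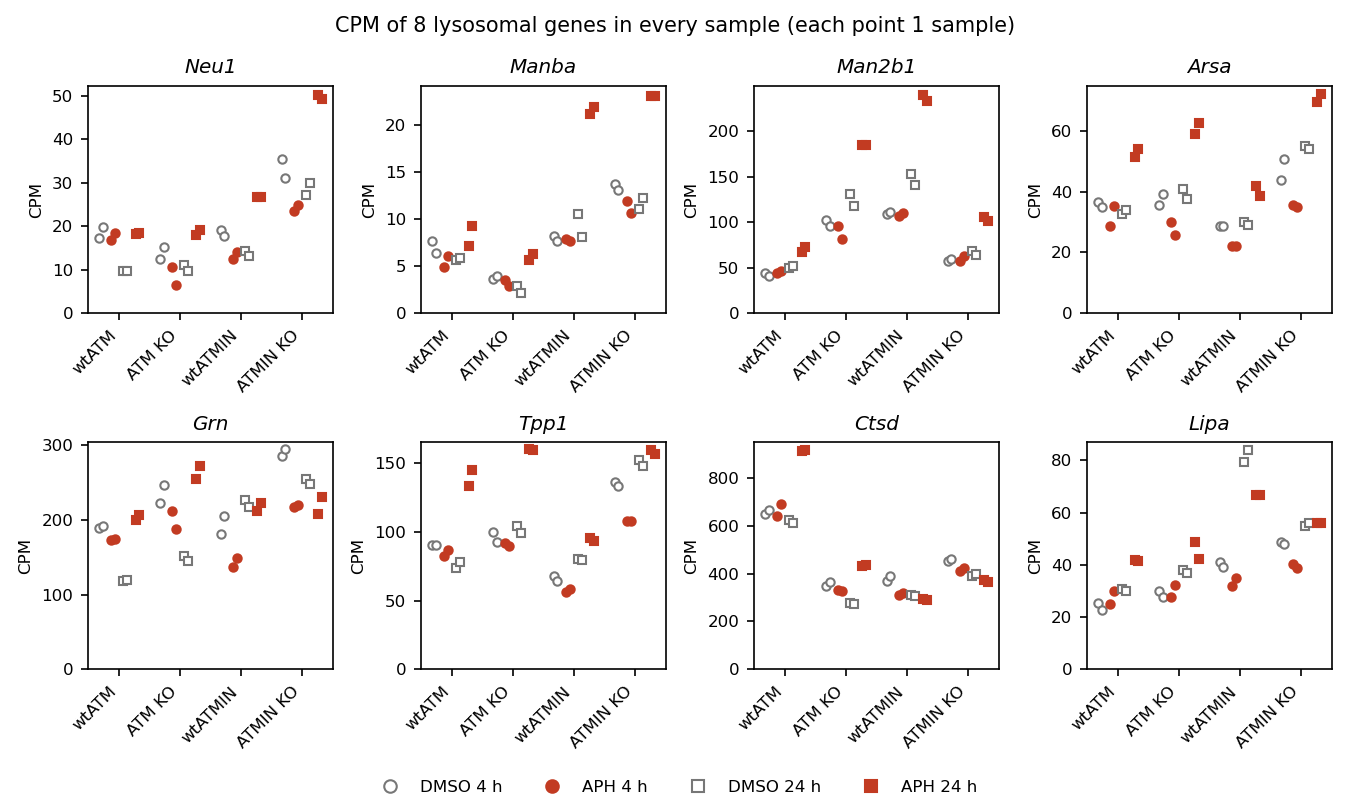
CPM (vertical axes, starting at 0) of 8 lysosomal genes in every sample, by line (horizontal axis); open symbols are DMSO, filled symbols APH, circles 4 h and squares 24 h. In the upper row filled squares lie above open squares in all 4 lines, while for Grn, Ctsd and Lipa in the lower row they do so in the ATM pair of lines and not in wtATMIN.

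Other genes differed between the wild-type lines in their 24 h response. The difference of log2 changes, wtATMIN minus wtATM, was tested for every gene, and 11 of 40 were lower and 1 higher (7.66% and 6.42% of all genes). Grn (chr11:102430315-102437048), the granulin precursor that reaches the lysosome and is cut there, went from 118 and 120 CPM to 200 and 206 CPM in wtATM and from 151 and 145 CPM to 255 and 272 CPM in the ATM knock-out. In wtATMIN it stood at 227 and 218 CPM with DMSO and at 212 and 223 CPM with APH. The difference of changes was -0.80 ± 0.10 (edgeR adjusted p = 2.07e-07). Lipa, the acid lipase that frees cholesterol from its esters, had changes of 0.45 in wtATM and -0.29 in wtATMIN, with a difference of -0.74 ± 0.12. Its fall in wtATMIN, from 79.4 and 83.9 CPM to 67.0 and 66.7 CPM, was not called without wtATMIN DMSO 24 h replicate 2 (-0.25) or when scaled by library size alone. From 4 h to 24 h mean Grn with DMSO went from 190 to 119 CPM in wtATM and from 193 to 222.5 CPM in wtATMIN. Mean Lipa with DMSO went from 24.1 to 30.5 CPM in wtATM and from 40.3 to 81.65 CPM in wtATMIN. The part of these DMSO levels in the differences was not tested.

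Tpp1, a tripeptidyl peptidase, and Ctsd, the main aspartic protease, showed differences of -0.63 ± 0.09 and -0.63 ± 0.08 between the wild-type lines. Tpp1 went from 74.0 and 77.9 CPM to 134 and 145 CPM in wtATM and from 153 and 148 CPM to 160 and 157 CPM in the ATMIN knock-out. Ctsd (chr7:142375911-142388038) went from 625 and 611 CPM to 910 and 916 CPM in wtATM and from 276 and 273 CPM to 432 and 437 CPM in the ATM knock-out. In the ATMIN pair its APH samples, at 296 and 290 CPM and at 372 and 363 CPM, lay just below the DMSO samples, without passing the test. Ctsb, Ctsa, Lamp1 and Laptm4a also differed in this direction, by -0.49, -0.41, -0.34 and -0.33, and with Grn, Lipa, Tpp1 and Ctsd they made up the 8 genes that passed in all 32 leave-one-out fits. The Laptm4a difference was not called when scaled by library size alone. Manba differed the other way (0.69 ± 0.20), which was not called without any one of 5 libraries: wtATM DMSO 24 h replicate 1 (0.72) or 2 (0.67), wtATM APH 24 h replicate 1 (0.51), wtATMIN DMSO 24 h replicate 2 (0.53) or wtATMIN APH 24 h replicate 2 (0.65).

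Further genes named by role showed smaller changes. Npc1, the membrane protein that exports cholesterol from the lysosome, changed by 0.37, 0.75, 0.09 and 0.27, and the last was lost without ATMIN knock-out DMSO 24 h replicate 2 (0.23). Npc2 changed by 0.31, 0.54, 0.06 and -0.07, and Psap by 0.32, 0.42, 0.10 and 0.11, each called in the first pair of lines and not in the ATMIN pair. Psap stood at 1080 and 1103 CPM with DMSO and at 1339 and 1390 CPM with APH in wtATM. Lamp1 changed by 0.27, 0.29, -0.08 and -0.08, again called in the first pair of lines. Mcoln1, the calcium channel of the lysosomal membrane, was called with changes of 0.50 (wtATM), 0.33 (wtATMIN) and 0.46 (ATMIN knock-out) but not in the ATM knock-out (0.15), and its wtATMIN call was lost without DMSO 24 h replicate 1 (0.30) or APH 24 h replicate 1 (0.29) of that line. Ctsl changed by 0.13, 0.49, 0.30 and -0.07, and the middle pair of values was called.

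The genes with the smallest means among those called in at least 3 lines were Ppt1, Gla, Glb1 and Gaa. Ppt1, which removes palmitate from proteins, changed by 0.23, 0.27, 0.27 and 0.18, the last not called. Gla changed by 0.32, 0.51, 0.36 and -0.18, the last not called. Glb1, a β-galactosidase, changed by 0.17, 0.31, 0.39 and 0.43, the first not called. Gaa, the α-glucosidase that degrades glycogen, changed by 0.36, 0.58, 0.30 and 0.13, the last not called. Several of these calls rest on single libraries of the 24 h groups. Those of Ppt1 were lost without wtATM DMSO replicate 1 (0.24) or 2 (0.23) or APH replicate 1 (0.20), without ATM knock-out DMSO replicate 1 (0.25) or APH replicate 2 (0.22), and without wtATMIN DMSO replicate 1 (0.18), each in its own line. The Gaa call in wtATM was lost without DMSO replicate 1 (0.37) or 2 (0.34) or APH replicate 2 (0.26), and that in wtATMIN without any of its 4 libraries (0.27 to 0.32). The Gla call in wtATM was lost without any of its 4 libraries (0.28 to 0.35), and that in wtATMIN without DMSO replicate 1 (0.33) or APH replicate 1 (0.30). The Glb1 call in the ATM knock-out was lost without DMSO replicate 2 (0.29) or APH replicate 2 (0.25).

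At 24 h 5 genes were higher in at least 1 line and lower in another: Ctsb, Lipa, Grn, Cd63 and Laptm4a. The share of all genes called in opposite directions is not given here. Ctsb, a cysteine cathepsin with exo- and endopeptidase activity, had changes of 0.27 ± 0.06, 0.43 ± 0.06, -0.23 ± 0.06 and -0.27 ± 0.06, and 561 and 545 CPM with DMSO against 478 and 468 CPM with APH in wtATMIN. The wtATMIN fall was lost when scaled by library size alone. The Ctsb gene overlaps Fdft1, a sterol synthesis gene on the opposite strand, with changes of -0.39, -0.16, -0.51 and -0.70. Reads of the overlap cannot be told apart where strand was not kept. Cd63 had changes of 0.03, 0.21, -0.10 and -0.36. The rise in the ATM knock-out was lost without ATM knock-out DMSO 24 h replicate 2 (0.19) or APH 24 h replicate 1 (0.17), and the fall in the ATMIN knock-out, from 422 and 445 CPM to 342 and 333 CPM, was not lost in any fit. Laptm4a, a membrane-spanning protein of late endosomes, changed by 0.22, 0.18, -0.11 and -0.19. Its wtATM call was lost without DMSO 24 h replicate 1 (0.21) or APH 24 h replicate 1 (0.18), and its ATM knock-out call in 9 fits, among them those without each of the 4 libraries compared (0.18 to 0.19). Lipa changed by 0.45, 0.28, -0.29 and 0.01, and the second was lost without ATM knock-out DMSO 24 h replicate 1 (0.29) or 2 (0.26) or APH 24 h replicate 1 (0.17). The falls of Grn (-0.20) and Laptm4a (-0.19) in the ATMIN knock-out were each lost in 3 fits without a library of that line and when scaled by library size alone. For Grn these were DMSO 24 h replicates 1 (-0.18) and 2 (-0.22) and APH 24 h replicate 1 (-0.12), and for Laptm4a DMSO 24 h replicate 2 (-0.15) and APH 24 h replicates 1 (-0.19) and 2 (-0.19).

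The summed level of the 40 genes put these responses beside the DMSO levels. In wtATM it was 6962 ± 6.51 CPM (SD, n = 2) with DMSO at 4 h, 5728 ± 9.33 CPM with DMSO at 24 h and 7094 ± 22.5 CPM with APH at 24 h. In the ATM knock-out the same 3 values were 6093 ± 92.6, 5045 ± 74.5 and 6784 ± 42.6 CPM. In both lines the 24 h DMSO cultures were therefore below the 4 h ones, and the 24 h APH samples were above both. In wtATMIN the values were 5624 ± 220.3, 5666 ± 107.1 and 5883 ± 3.18 CPM, and in the ATMIN knock-out 8512 ± 93.9, 9156 ± 56.9 and 9160 ± 53.6 CPM. Against DMSO at the same time, APH at 24 h changed the sum by 23.9%, 34.5%, 3.84% and 0.0513%. Abundant genes weigh most in it, and rises and falls cancel. In the ATMIN knock-out mean Psap went from 2453 to 2639 CPM, Ctsb from 595.7 to 494.5 CPM and Cd63 from 433.2 to 337.6 CPM. There 13 genes were called higher and 4 lower, so the small change of the sum does not mean that no gene responded.

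**Figure D3:**
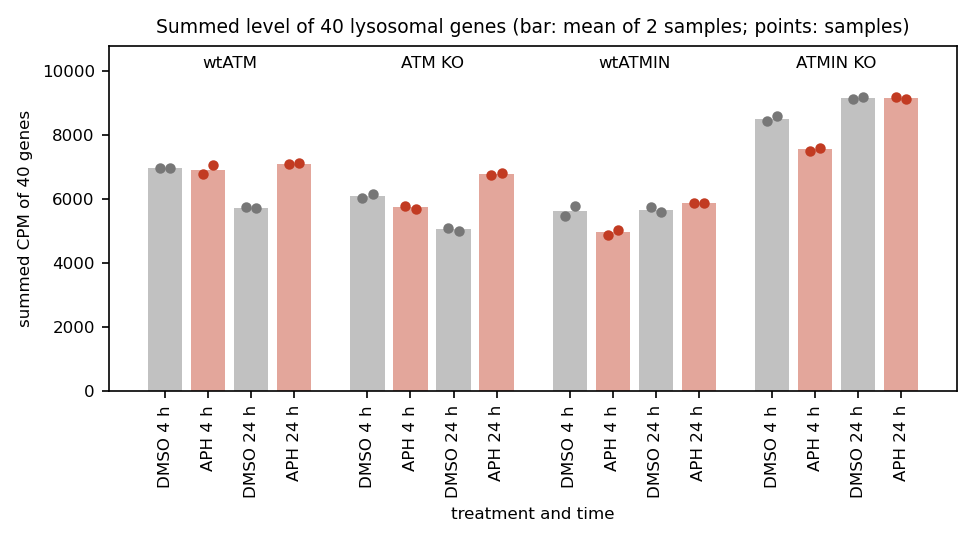
Summed CPM of the 40 genes (vertical axis, from 0) in each group (horizontal axis), with bars at the mean of 2 samples, points for the samples, grey for DMSO and red for APH. In wtATM and the ATM knock-out the 24 h DMSO bar (5728 and 5045 CPM) is the lowest of its line, and the ATMIN knock-out is highest in every condition.

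Between the DMSO cultures, 17 genes were lower and 8 higher at 24 h than at 4 h in wtATM (23.3% and 23.1% of all genes) and 19 lower and 6 higher in its knock-out (24.1% and 24.6%). In wtATMIN 13 were lower and 18 higher (26.3% and 29.1%), and in the ATMIN knock-out 9 lower and 14 higher (23.8% and 23.4%). Scaled by library size alone the ATMIN pair became 7 lower and 21 higher and 3 lower and 19 higher, and with RLE size factors the last became 10 lower and 10 higher. Without ATMIN knock-out DMSO 24 h replicate 2 that line had 12 calls in all, and without ATM knock-out APH 4 h replicate 1 it had 26. Against DMSO at 4 h in place of DMSO at 24 h, an alternative chosen after seeing the data, APH at 24 h gave 16, 26, 26 and 23 genes higher and 6, 2, 8 and 8 lower (27.5%, 29.6%, 32.3% and 29% of all genes higher and 26.4%, 25.7%, 28.6% and 28.2% lower). Of the genes called against DMSO at 24 h, 14 of 30, 24 of 33, 12 of 18 and 13 of 17 kept their call in this contrast. Another 7, 6, 2 and 2 kept their sign but lost the call, and 9, 3, 4 and 2 had the opposite sign. Those called the other way were Ctsb, Hexa, Gaa and Npc1 in wtATM, Cd63 in the ATM knock-out, Ctsb and Lipa in wtATMIN, and Laptm4a in the ATMIN knock-out. Neu1 in wtATM stood at a log2 change of -0.021 and was not called. This contrast also holds the change of culture time and any library batch that went with it.

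Other values moved with culture time. Summed fibroblast markers in DMSO lay at 23620 to 23720 CPM at 4 h and at 19660 to 19700 CPM at 24 h in wtATM, and at 16550 to 16960 and then at 12840 to 13330 CPM in its knock-out. In wtATMIN they lay at 11730 to 12130 CPM and then at 10170 to 10190 CPM, and in the ATMIN knock-out at 29900 to 31700 and then at 22550 to 23990 CPM. Gm42418 was lower in every 24 h library than in any 4 h library, with the levels given above. Their part in the DMSO differences was not tested.

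At 4 h most of the genes that passed the test were lower. In wtATM 1 gene was higher and 1 lower (2.81% and 2.76% of all genes). In the ATM knock-out 2 were higher and 9 lower (14% and 15.4%), in wtATMIN 0 and 17 (7.25% and 7.75%), and in the ATMIN knock-out 0 and 13 (9.48% and 10.9%). In both ATMIN lines 0 genes were higher at an unadjusted p under 0.05 or by DESeq2, and 10 genes were lower in both. The share of all genes lower in both is not given here. The median changes were -0.04, -0.14, -0.19 and -0.17. Summed fibroblast markers at 4 h lay at 23620 to 23720 CPM with DMSO and at 22980 to 23470 CPM with APH in wtATM, at 16550 to 16960 and 11320 to 15210 CPM in its knock-out, at 11730 to 12130 and 9963 to 10350 CPM in wtATMIN, and at 29900 to 31700 and 26280 to 26710 CPM in the ATMIN knock-out. They were lower with APH in each line, and their part in the result was not tested. The counts moved with single libraries. The ATM knock-out had 2 calls without its APH 4 h replicate 2 and 17 without replicate 1, the libraries that stood apart, 0 calls with its groups compared alone and 1 higher with 17 lower when scaled by library size alone. In wtATMIN 6 genes were called without APH 4 h replicate 1, and in the ATMIN knock-out 6 without DMSO 4 h replicate 1.

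At 4 h 6 genes were lower in 3 of the 4 lines: Gla, Neu1, Arsa, Grn, Ctsz and Ctsa. How many of all genes were lower in as many lines is not given here. Gla (chrX:134588149-134601125), the α-galactosidase that acts on globotriaosylceramide, moved most. It went from 16.2 and 16.2 CPM to 7.53 and 7.01 CPM in wtATMIN and from 23.1 and 23 CPM to 13.2 and 12.4 CPM in the ATMIN knock-out. In the ATM knock-out it stood at 19.2 and 20.2 CPM with DMSO and at 18.5 and 21.9 CPM with APH. The log2 changes were -0.42 ± 0.11, 0.02 ± 0.11, -1.16 ± 0.12 and -0.84 ± 0.11. The wtATM change was lost with its groups compared alone and without wtATM DMSO 4 h replicate 1 (-0.39) or 2 (-0.46) or APH 4 h replicate 1 (-0.21).

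Ctsa, which protects Neu1 in a complex with it, changed by -0.15, -0.21, -0.26 and -0.31, and Ctsz by -0.09, -0.49, -0.27 and -0.28. The Ctsz falls in both lines of the ATMIN pair were lost without wtATMIN DMSO 4 h replicate 2 (-0.12), APH 4 h replicate 1 (-0.25) or 2 (-0.29), and without any of the 4 ATMIN knock-out libraries compared (-0.31 to -0.26). The Ctsa falls were lost without ATM knock-out DMSO 4 h replicate 1 (-0.20) or 2 (-0.23) or APH 4 h replicate 2 (-0.10), and without wtATMIN DMSO 4 h replicate 2 (-0.23).

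Grn fell by 0.43 in wtATMIN and by 0.41 in the ATMIN knock-out, in each fit without a library. Its fall of 0.23 in the ATM knock-out was lost without DMSO 4 h replicate 2 (-0.16) or APH 4 h replicate 2 (-0.15) of that line. Neu1 and Arsa were higher with APH than with DMSO in every line at 24 h. Their 4 h changes were -0.08, -0.65, -0.46 and -0.46 for Neu1 and -0.17, -0.42, -0.37 and -0.42 for Arsa. Each of the Neu1 calls was lost without 1 or 2 of the libraries compared: ATM knock-out DMSO 4 h replicate 2 (-0.50) and APH 4 h replicate 2 (-0.38), wtATMIN DMSO 4 h replicate 1 (-0.42) and APH 4 h replicate 1 (-0.38), and ATMIN knock-out DMSO 4 h replicate 1 (-0.37). The Arsa call in wtATMIN was lost without DMSO 4 h replicate 2 (-0.37) or APH 4 h replicate 1 (-0.38).

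The difference between the 24 h and 4 h responses was tested within each line. It was positive in 21, 27, 21 and 18 of 40 genes (7.87%, 12.1%, 9.12% and 10.8% of all genes) and negative in 0, 0, 0 and 1 (7.22%, 9.89%, 9.45% and 10.3%). In the first 3 lines 0 genes had a negative difference at an unadjusted p under 0.05 or by DESeq2. Neu1 was among the 3 largest of the called genes in each line, with differences of 1.00 ± 0.18, 1.48 ± 0.20, 1.41 ± 0.17 and 1.26 ± 0.15. These differences also hold the change between the DMSO cultures. Mean Neu1 in wtATM was 18.5 CPM with DMSO and 17.6 CPM with APH at 4 h, and 9.715 and 18.3 CPM at 24 h. In the ATM knock-out these 4 means were 13.8, 8.54, 10.5 and 18.65 CPM. They were 18.4, 13.35, 13.8 and 26.7 CPM in wtATMIN and 33.4, 24.2, 28.6 and 49.7 CPM in the ATMIN knock-out. Gla had the largest in wtATMIN (1.52 ± 0.16). The single negative difference was Cd63 in the ATMIN knock-out, at -0.28 ± 0.09.

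The gene for TFEB itself (Tfeb, chr17:47737030-47792419) was not called higher at 24 h in any line. Its levels at 24 h were 8.47 and 10.1 CPM with DMSO and 9.66 and 10.2 CPM with APH in wtATM, and 7.85 and 8.24 against 8.81 and 7.95 CPM in the ATM knock-out, where the groups overlapped. In wtATMIN it stood at 17.7 and 16.4 against 12.5 and 11.9 CPM. The log2 changes were 0.09 ± 0.16, 0.06 ± 0.17, -0.49 ± 0.14 and -0.16 ± 0.15, and the third was called (edgeR adjusted p = 0.00742) but lost without wtATMIN DMSO 24 h replicate 1 (-0.44) or APH 24 h replicate 2 (-0.46). At 4 h it was lower in the ATM knock-out (-0.46 ± 0.15), which was lost with the groups compared alone and without DMSO 4 h replicate 2 (-0.43) or APH 4 h replicate 2 (-0.25) of that line. Tfeb was lower at 24 h than at 4 h in the DMSO cultures of all 4 lines, by 0.54, 1.14, 0.37 and 0.36 on the log2 scale. As to the E-box, the median over genes of the mean 24 h change was 0.294 for 14 genes with CACGTG, from 0.10 to 1.45. It was 0.237 for 22 genes without it, from -0.12 to 0.97, so the ranges overlapped. For the longer GTCACGTG it was 0.263 for 11 genes with it, from 0.10 to 1.06. The 25 genes without GTCACGTG had a median of 0.239, from -0.12 to 1.45.

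Neighbouring pathways were read from lists of other genes, whose counts stand against 14.4%, 15.7%, 13.6% and 14.3% of all genes higher and 14.3%, 12.2%, 15.3% and 15.8% lower. At 24 h 12, 10, 8 and 9 of 16 subunits of the V-ATPase, the proton pump that acidifies the lysosome, were higher and none was lower. Atp6v1a, its catalytic subunit, changed by 0.65, 0.37, 0.17 and 0.04, and Atp6v0b by 0.65, 0.45, 0.34 and 0.16, the last value of each not passing the test. Of 19 other lysosomal hydrolases and helpers, 11, 12, 7 and 8 were higher and 0, 1, 0 and 1 lower. Smpd1, the acid sphingomyelinase, rose by 0.60, 0.58, 0.39 and 0.70. Of 15 autophagy genes 9, 10, 6 and 4 were higher and 2, 0, 1 and 1 lower, and the cargo receptor Sqstm1 changed by 0.53, 0.79, 0.62 and 0.13, the last not passing the test.

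Of 13 genes for MiT/TFE factors and mTORC1 regulation at the lysosome, 4, 6, 2 and 2 were higher and 1, 1, 1 and 2 lower, and the higher share in the ATMIN pair (15.4% in each line) lay near that of all genes. Flcn, part of a GTPase-activating complex for Rag GTPases, rose by 0.49, 0.55, 0.31 and 0.20. Rragc, a Rag GTPase, changed by 0.36, 0.54, -0.08 and 0.05, called in the first pair of lines. Of 9 genes for mannose 6-phosphate sorting, which directs hydrolases to the lysosome, 2, 3, 2 and 2 were higher and 2, 1, 0 and 0 lower, shares of 22.2%, 33.3%, 22.2% and 22.2% higher that rest on at most 3 genes. The sorting receptor Sort1 rose in all lines but wtATM (1.10, 1.26 and 1.62), and its change of 0.89 ± 0.48 there did not pass the test. Gga3, an adaptor for sorting at the trans-Golgi, had changes of -0.46 and -0.33 in the first pair of lines. With RLE size factors each of these counts stayed within 1 gene of the value given, and library size alone left the V-ATPase with 12, 11, 12 and 13 subunits higher and none lower.

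The ATMIN knock-out line had a higher summed level of the 40 genes than wtATMIN in every condition. Abundant genes weigh most in this sum. With DMSO at 4 h mean Psap was 2171 against 899.5 CPM, Ctsl 627.5 against 172.6 CPM and Npc2 369.6 against 127.6 CPM. In DMSO at 4 h 26 of 40 genes were higher and 7 lower (21.9% and 23% of all genes), and after APH at 4 h 25 and 7 (19.8% and 22.3%). At 24 h 23 were higher and 8 lower with DMSO (23.5% and 26.2%) and 19 and 6 with APH (23.8% and 26.8%). In all 4 conditions 18 genes were higher and 4 lower. The shares of all genes called one way in all 4 conditions are not given here. Summed fibroblast markers were also higher there, at 15000 to 31700 CPM against 7177 to 12130 CPM, and summed macrophage markers lay at 22.3 to 31.7 CPM against 15.98 to 22.32 CPM. Their part in the difference was not tested.

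**Figure D4:**
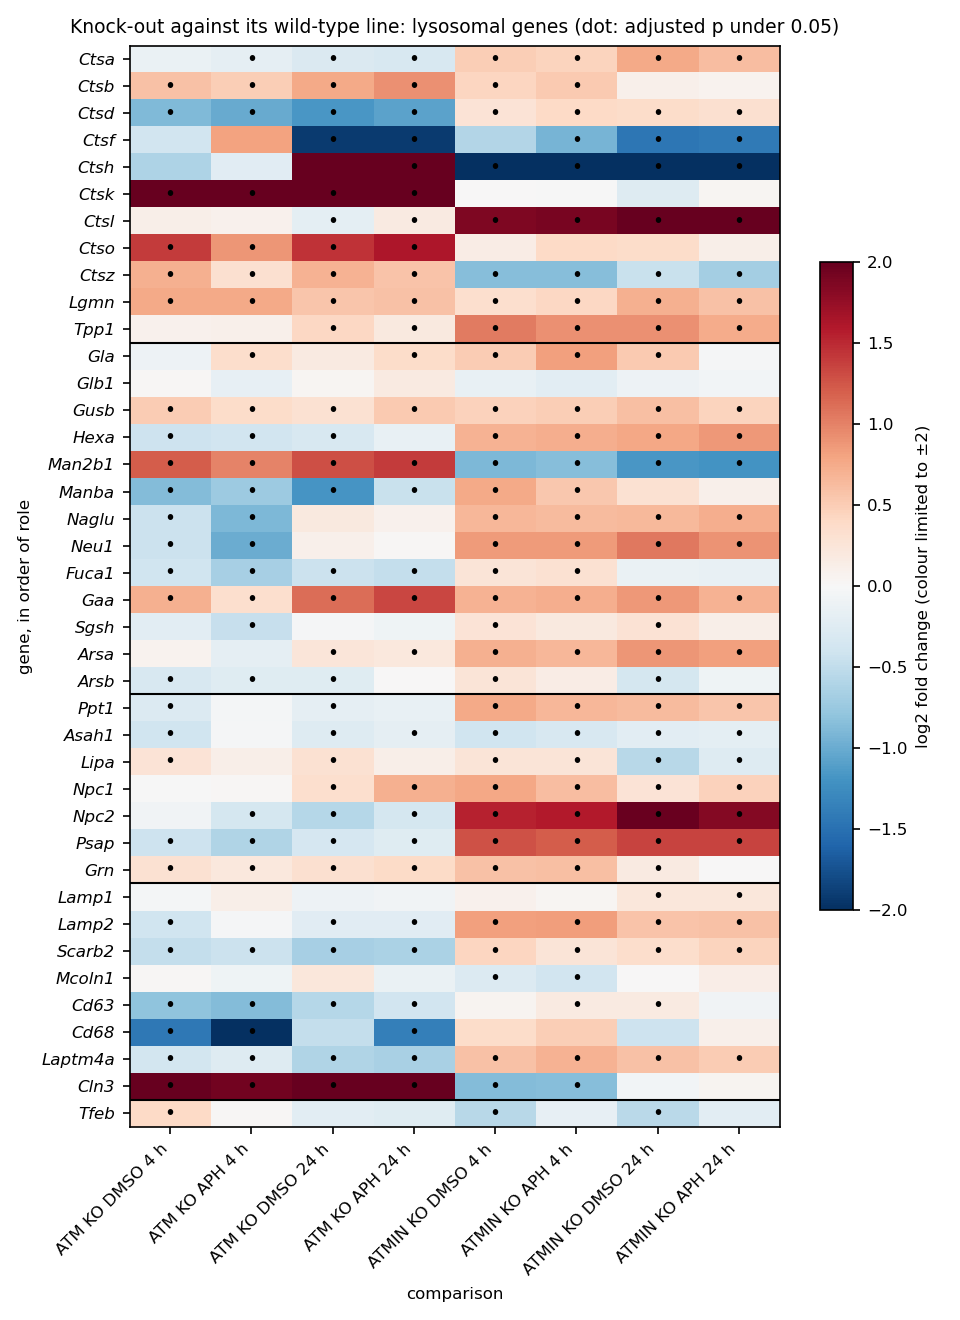
Log2 fold change of each knock-out line against its wild-type line for the 40 genes (rows, in order of role) in 4 conditions each (columns); dots mark an adjusted p under 0.05 and colours are limited to ±2. The 4 ATMIN columns are mostly red (26, 25, 23 and 19 genes higher from left to right), while the ATM columns hold red and blue cells in like number.

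Ctsl (chr13:64359337-64370890), a cysteine cathepsin, differed most upward. Over the 8 libraries of a line it ran from 129 to 178 CPM (median 159) in wtATMIN and from 583 to 722 CPM (median 651) in the ATMIN knock-out, and wtATM (471 to 595 CPM) and the ATM knock-out (464 to 663 CPM) lay near the knock-out. The log2 differences were 1.86 to 2.46 across conditions. Npc2 (chr12:84754562-84773152), the soluble carrier that hands cholesterol to NPC1, ran from 112 to 159 CPM in wtATMIN and from 334 to 593 CPM in the ATMIN knock-out (1.53 to 1.97). Psap (chr10:60277627-60302597) ran from 791 to 1037 CPM against 1882 to 2642 CPM (1.22 to 1.36). Neu1 was higher by 0.86 to 1.05. None of these ranges overlapped between the ATMIN lines except that of Neu1, and each of the 4 genes kept its calls in every fit without a library and every setting.

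The 4 genes lower in the ATMIN knock-out in every condition were Ctsh, Man2b1, Ctsz and Asah1. Ctsh, an aminopeptidase of the cathepsin family, lay between 12.6 and 19.4 CPM in wtATMIN and between 0.568 and 1.94 CPM in the ATMIN knock-out, by log2 differences of -4.44 to -3.28. It had at most 5 reads in a wtATM library and at most 13 in an ATM knock-out library, so wtATMIN alone held it at a level above 2 CPM. Man2b1 was lower by log2 differences of -1.19 to -0.86 and Ctsz, a carboxypeptidase, by log2 differences of -0.86 to -0.45. Asah1, the acid ceramidase, showed log2 differences of -0.40 to -0.19. Its call with DMSO at 24 h was lost without wtATMIN DMSO 24 h replicate 2 or ATMIN knock-out DMSO 24 h replicate 1 (-0.16 in each). Its call with APH at 24 h was lost without any of the 4 libraries compared (-0.19 to -0.12), without wtATMIN DMSO 24 h replicate 1 (-0.15) and without the filter on low counts.

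The ATM knock-out differed from wtATM in both directions. With DMSO 12 genes were higher and 15 lower at 4 h, and 14 higher and 16 lower at 24 h. With APH 11 were higher and 15 lower at 4 h, and 16 higher and 13 lower at 24 h. Among all genes the shares were 27.3% and 27.9%, 29.5% and 29.8%, 30.3% and 28.6%, and 31.5% and 29.9%, so that these counts were of the same order as for all genes. In every condition 10 genes were higher and 7 lower, and the shares of all genes called one way in every condition are not given here. With library size alone APH at 24 h gave 13 higher and 16 lower. Ctsk (chr3:95499256-95509362), the collagen-degrading cathepsin of osteoclasts, had 33 to 95 reads per ATM knock-out library and 0 to 11 per wtATM library, which is 1.98 to 6.19 CPM against 0 to 0.639 CPM. Cln3 lay between 2.54 and 6.72 CPM against 0.290 to 1.11 CPM, and Man2b1 between 81.9 and 184 CPM against 41.01 to 73.1 CPM. Man2b1 was higher in every condition by 0.99 to 1.39, the opposite of its direction in the ATMIN knock-out. Ctso, a cysteine cathepsin at 1.52 to 15.3 CPM in these 2 lines, was higher by 0.88 to 1.62, and its difference after 4 h of APH was lost without ATM knock-out APH 4 h replicate 1 (0.67).

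Of the 7 genes lower in the ATM knock-out throughout, Ctsd had the largest mean difference. It lay between 273 and 437 CPM against 611 to 916 CPM in wtATM (-1.17 to -0.88). Manba was lower by log2 differences of -1.18 to -0.45, the last of which, after 24 h of APH, was lost without wtATM APH 24 h replicate 2 (-0.25) or ATM knock-out APH 24 h replicate 1 (-0.37). Cd63 ran from 442 to 754 CPM against 654 to 1296 CPM (log2 differences of -0.87 to -0.39), and these ranges overlapped across conditions. Scarb2, an abundant glycoprotein of the lysosomal membrane, had log2 differences of -0.66 to -0.43.

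**Figure D5:**
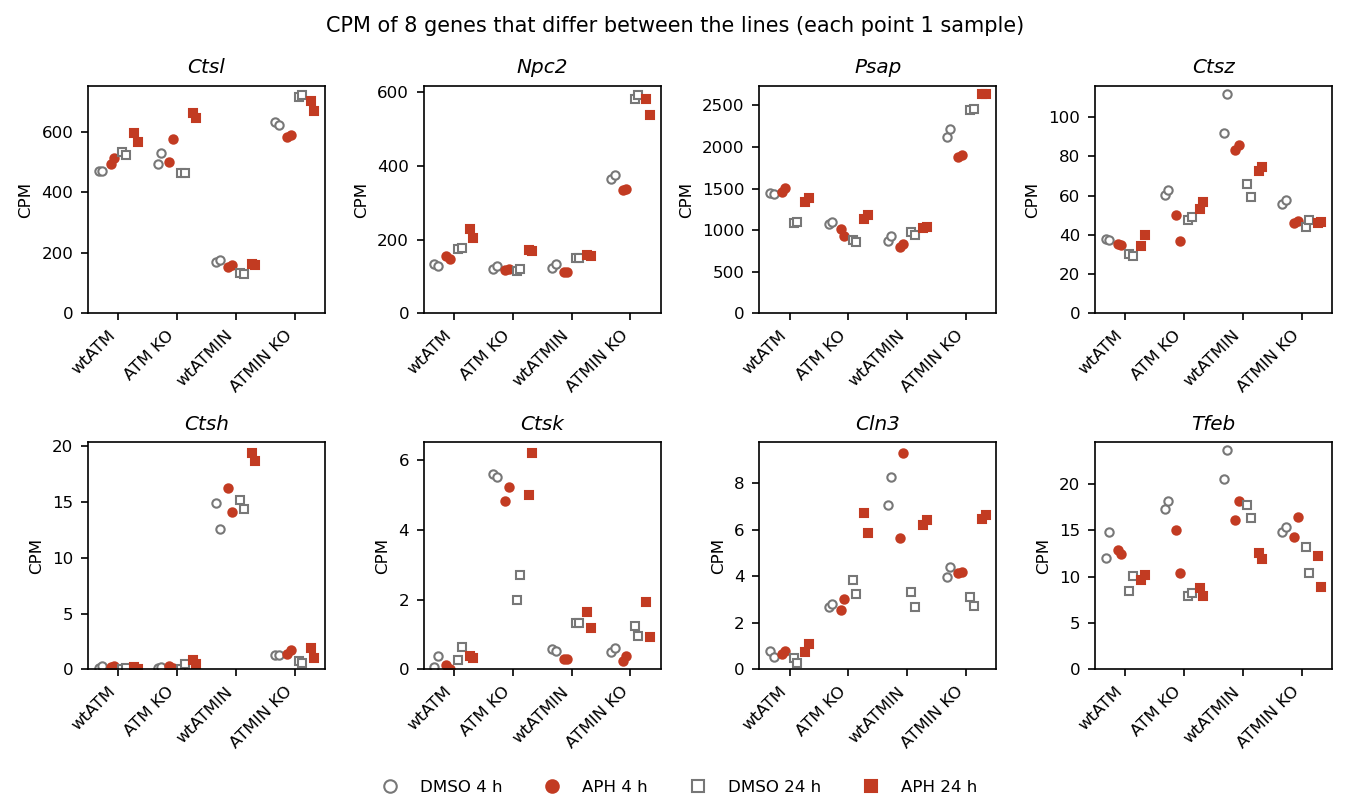
CPM (vertical axes, from 0) of 8 genes in every sample, by line (horizontal axis); open symbols are DMSO, filled symbols APH, circles 4 h and squares 24 h. Ctsl is low in wtATMIN alone (129 to 178 CPM), Ctsh is high in wtATMIN alone (12.6 to 19.4 CPM), Npc2 and Psap are highest in the ATMIN knock-out, and Ctsk is highest in the ATM knock-out.

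Few genes passed the test for a response to APH that differed between a knock-out and its wild-type line. For ATM at 4 h the difference was positive for Asah1 (0.37 ± 0.10) and Lamp2 (0.37 ± 0.11) and negative for Npc2 (-0.29 ± 0.09), which is 2 and 1 of 40 (6.02% and 5.36% of all genes). At 24 h it was positive for Ctsl (0.36 ± 0.09) and Npc1 (0.38 ± 0.10), 2 and 0 of 40 (2.67% and 1.23%), with 3 genes negative at an unadjusted p under 0.05 and 0 by DESeq2. For ATMIN 0 genes differed at 4 h by edgeR (0.346% and 0.325% of all genes), 0 at an unadjusted p under 0.05 and 0 by DESeq2. At 24 h Ctsl (-0.37 ± 0.09) and Gla (-0.54 ± 0.15) differed, 0 positive and 2 negative (1.01% and 1.42%), with 2 genes positive at an unadjusted p under 0.05 and 0 by DESeq2. None of these 7 calls was kept in every fit without a library. Without ATM knock-out APH 4 h replicate 1 the count for ATM at 4 h was 13, and scaled by library size alone it was 0 positive and 7 negative.

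Between the wild-type lines the levels differed for most genes. At 4 h 12 of 40 genes were higher in wtATMIN than in wtATM and 16 lower with DMSO (28.8% and 28.4% of all genes), and at 24 h 24 were higher and 8 lower (31.5% and 30.2%). The difference of the 4 h APH responses was called in 4 genes, all lower in wtATMIN: Gla (-0.73 ± 0.17), Lipa (-0.47 ± 0.13), Npc2 (-0.40 ± 0.09) and Ctsd (-0.28 ± 0.08), against 1.4% of all genes lower and 1.04% higher. No gene was higher at an unadjusted p under 0.05 or by DESeq2, and none of the 4 calls was kept in every fit without a library.

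Of the 40 genes, 11 overlap another protein-coding gene. Among those named here they are Ctsa, Ctsb, Ctsz, Glb1, Grn, Hexa, Lamp1, Cln3, Npc1 and Ppt1. Whether the reads were counted by strand is not given in the sources used here, so a share of their counts may belong to the overlapping gene.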

How the data were processed

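The authors deposited a table of read counts per Ensembl gene, aligned to mm10 with TopHat2 2.0.13 and Bowtie2 2.4.0, and analysed with DESeq2 1.6.3, per the submitters' processing notes. The counting tool, strand setting and annotation release are not given in the sources used here. In that table AT and UT were read as APH and DMSO. Sample columns of the authors' 10 comparison tables (120) were not used. Gene symbols came from those tables (16476 genes) or from GENCODE M21 (21380), and gene lengths came from the same tables. From the counts, genes were filtered with filterByExpr, scaled by TMM and tested with edgeR 4.0.16 (quasi-likelihood, R 4.3.3, limma 3.58.1) in 1 fit of all 32 samples and 16 groups, with Benjamini-Hochberg adjustment within each of 32 comparisons and a threshold of 0.05. Log2 changes are edgeR's fitted values and errors after ± are standard errors unless marked SD. The common biological coefficient of variation was 0.0643. Scripts were tested on simulated data. DESeq2 1.42.0, RLE factors, library size alone, no filter, a replicate block, the compared groups alone and leaving out each library were the alternatives. The genes and lists were chosen with earlier results of these data known. Named for APH are genes called the same way in 3 or more lines (4 at either end of the mean change) and up to 4 of each role by p. Knock-out genes had to be called one way in all 4 conditions (again 4 at either end), and differences of responses are named 3 at either end. Genes called in opposite directions, Tfeb and up to 2 genes of each pathway list by p are also named. Fuca1, Ctsa, Ctsz and the other genes that complete a set were named after their values were seen. RefSeq promoter windows of GRCm38.p6 were searched for the E-box.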

Additional observations from a re-analysis of the deposited data

Results flagged for a closer look

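These genes had a response to APH that differed between lines or between times, by edgeR's test of the difference itself on the log2 scale, with the 3 largest and 3 smallest of each comparison given. Between wild-type lines at 24 h (wtATMIN minus wtATM) the difference was -0.8035 for Grn, -0.7398 for Lipa, -0.6326 for Tpp1, -0.331 for Laptm4a, -0.3056 for Hexa and 0.6948 for Manba. At 4 h it was -0.7319 for Gla, -0.4652 for Lipa, -0.3965 for Npc2 and -0.2832 for Ctsd.

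Between the ATM knock-out and wtATM the 4 h response differed by 0.3734 for Asah1, 0.3694 for Lamp2 and -0.2894 for Npc2. The 24 h response differed by 0.3838 for Npc1 and 0.36 for Ctsl. Between the ATMIN knock-out and wtATMIN the 24 h response differed by -0.3697 for Ctsl and -0.5393 for Gla.

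Between times (24 h minus 4 h) the response in wtATM differed by 2.094 for Ctsf, 0.9995 for Neu1, 0.9778 for Tpp1, 0.337 for Lamp1, 0.3135 for Ctsb and 0.2842 for Psap. In the ATM knock-out it differed by 1.476 for Neu1, 1.445 for Manba, 1.408 for Ctsk, 0.4178 for Mcoln1, 0.318 for Cd63 and 0.2208 for Lamp1. In wtATMIN the values were 1.519 for Gla, 1.411 for Neu1, 1.218 for Manba, 0.3259 for Ctsa, 0.2494 for Npc2 and 0.2483 for Psap. In the ATMIN knock-out they were 1.541 for Ctsf, 1.26 for Neu1, 1.226 for Manba, 0.2901 for Hexa, 0.277 for Lgmn and -0.2754 for Cd63.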

How the results depend on the processing

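Counts of called genes are given here, higher and lower together. For APH at 4 h, wtATM had 1 without the low-count filter and 1 with its groups compared alone. The ATM knock-out had 18 scaled by library size and 0 compared alone, and wtATMIN had 9 compared alone. For APH at 24 h against DMSO at 4 h, chosen after seeing the data, wtATMIN had 34 and the ATMIN knock-out 31. For the difference between the ATM knock-out and wtATM at 4 h the count was 7 by library size, 6 without the filter, 6 with DESeq2 and 0 compared alone. At 24 h it was 1 with RLE factors, 0 by library size and 1 without the filter. For ATMIN at 24 h it was 0 by library size, 1 without the filter, 1 with DESeq2 and 5 compared alone, and between wild-type lines at 4 h 2 without the filter and 2 compared alone.

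Leaving out 1 library gave ranges of 0 to 2 (wtATM), 2 to 17 (ATM knock-out), 6 to 21 (wtATMIN) and 6 to 16 (ATMIN knock-out) for APH at 4 h, and of 19 to 31, 28 to 34, 12 to 21 and 12 to 18 at 24 h. For the knock-out differences the ranges were 0 to 13 (ATM, 4 h), 0 to 3 (ATM, 24 h) and 0 to 2 (ATMIN, 24 h). Between wild-type lines the range was 0 to 5 at 4 h, and between DMSO times in the ATMIN knock-out it was 12 to 26. A group left with 1 sample was assumed to vary like the others. The causes were not tested.

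With a replicate block each of the 32 counts stayed within 1.5 times its value (30 for wtATM at 24 h without the block, 29 with it), and 7 of 670 gene calls and values were lost. Deviations of same-numbered samples correlated between -0.0862 and 0.0696. Such values cannot show whether same-numbered samples came from one culture or day. Some genes called against DMSO at 24 h turned sign against DMSO at 4 h. In wtATM these were Ctsb (-0.26), Ctsz (-0.0153), Gla (-0.0937), Hexa (-0.21), Naglu (-0.26), Neu1 (-0.021), Gaa (-0.63), Npc1 (-0.35) and Psap (-0.0799). In its knock-out they were Gaa (-0.0074), Scarb2 (-0.14) and Cd63 (-0.49). In wtATMIN they were Ctsb (0.19), Ctsl (-0.10), Lipa (0.73) and Cln3 (-0.28), and in the ATMIN knock-out Npc1 (-0.0357) and Laptm4a (0.54). Tfeb, not called at 24 h in wtATM and the ATM knock-out, also turned there (-0.44 and -1.08). Other genes without a call at 24 h turned sign as well and are not listed. Under the other alternatives no named gene's called direction reversed, but library size turned the ATM difference at 4 h from 2 positive and 1 negative to 0 and 7. Library size alone moved the median of all genes by 0.1146 (24 h minus 4 h response in the ATM knock-out), 0.1171 (wild-type lines at 24 h), 0.1619 and 0.1178 (DMSO times in the ATMIN pair). Depth limits Ctsk, Cln3, Ctsf and Ctso, whose few reads give wide errors.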
